A study of Mus musculus with 5 samples.

Results

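The genes described here are 10 effector and surface genes that interleukin 4 (IL-4) is known to induce in myeloid cells, measured in dendritic cells with and without the transcription factor Etv3. They were found by exact match of the gene symbol: Arg1, Chil3, Retnla, Tgm2, Fcer2a, Cdh1, Ear2, Mrc1, Cd209a and Egr2, 10 of the 27678 symbols in the deposited table. The choice used no measured value of these libraries as a rule, although earlier results of the data were known when the list was drawn up. All 10 passed the filter on low values, among 13813 genes tested, Cd209a through 2 Etv3-/- libraries alone.

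RNA-seq had been made from bone marrow of Etv3+/+ mice (2 libraries) and Etv3-/- mice (3 libraries). In both groups the marrow was grown for 6 days with 20 ng/ml of GM-CSF and 5 ng/ml of IL-4, so every library comes from cells exposed to IL-4 and none from cells without it. Live single cells with CD11c, intermediate CD11b and high MHC class II but no CD115 were sorted to a purity above 95%. The labels give no age, sex or strain of the mice and do not say whether replicates are separate animals or cultures, so the p-values measure the spread between these libraries, which may be technical. Etv3 encodes an ETS transcription factor, and the study asks how its loss alters these cells.

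IL-4 binds a receptor built on the IL-4 receptor alpha chain, and the attached Janus kinases phosphorylate STAT6, which dimerizes, enters the nucleus and binds DNA at paired TTC and GAA half-sites. In macrophages this programme is called alternative activation and is read out by arginase 1, the chitinase-like protein Ym1, the resistin-like protein FIZZ1 and the mannose receptor. Bone marrow cells grown with GM-CSF and IL-4 also use it, where it accompanies the formation of dendritic cells.

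The sequences that STAT6 is known to recognize were looked for first, because STAT6 is the factor through which IL-4 acts. RefSeq promoter entries (GRCm38.p6) were matched by symbol for 7 of the 10 genes, with 13 start sites in all, and the 250 bases before each start were searched on both strands for TTC and GAA separated by any 4 bases, a pattern that reads the same on either strand. It was present before 2 of the 13 starts, 1 of Retnla and 1 of the 3 of Fcer2a, and in 5.85% of 32851 such windows of all genes. No entry for Arg1, Tgm2 or Cdh1 was used here. The window of Retnla is chr16:48842359-48842608 on the plus strand, and that of Fcer2a chr8:3690862-3691111 on the minus strand. Both are shown 5′ to 3′ with the matched letters in capitals.
Retnla: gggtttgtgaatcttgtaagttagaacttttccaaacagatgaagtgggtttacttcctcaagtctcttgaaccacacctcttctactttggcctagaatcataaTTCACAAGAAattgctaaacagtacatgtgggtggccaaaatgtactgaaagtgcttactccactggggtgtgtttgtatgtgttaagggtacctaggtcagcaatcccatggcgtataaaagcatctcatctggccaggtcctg
Fcer2a: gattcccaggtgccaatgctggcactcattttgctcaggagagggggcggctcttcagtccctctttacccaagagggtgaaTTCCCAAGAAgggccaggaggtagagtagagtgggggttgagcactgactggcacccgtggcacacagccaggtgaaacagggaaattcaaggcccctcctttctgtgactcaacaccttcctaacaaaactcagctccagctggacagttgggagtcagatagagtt
The match TTCACAAGAA began 145 bases before the Retnla start, and TTCCCAAGAA began 168 bases before that start of Fcer2a. An ETS site spelled CCGGAAGT, searched on both strands, was found in 0 of the 13 windows and in 2.88% of all windows. A match of letters is a description and not a measured binding site.

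Of the 10 genes, Tgm2 rose in Etv3-/- cells, 2.86-fold, and no other passed the test in either direction (limma, adjusted p under 0.05). Over all tested genes 1.19% passed, 0.876% higher and 0.319% lower. The share called was 1.14% in edgeR, 8.95% in DESeq2 and 1.95% in limma with the replicate number as a block. Among the other 9 genes Fcer2a had a mean 8.39-fold higher in Etv3-/- libraries and Chil3 a mean 2.30-fold lower, with wide spreads. Cdh1 was 1.52-fold higher by group means, and Arg1, Retnla and Egr2 lay between 1.04-fold and 1.39-fold. The groups did not overlap for 4 of the 10 genes, against 36.0% of all tested genes. Tgm2, Fcer2a and Cdh1 were the 3 higher ones, against 16.7% of all genes, and Chil3 the lower one, against 19.3%. The same 4 had an unadjusted p under 0.05, against 18.0% of all tested genes. The median log2 fold change over the 10 was 0.46, against -0.06 over all tested genes. The two-sided exact permutation p, which at this group size is 0.1 at the least (10 ways to split the libraries), was 0.1 for Tgm2, Fcer2a and Cdh1, 0.2 for Chil3, and 0.3 or more for the others.

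**Figure D1:**
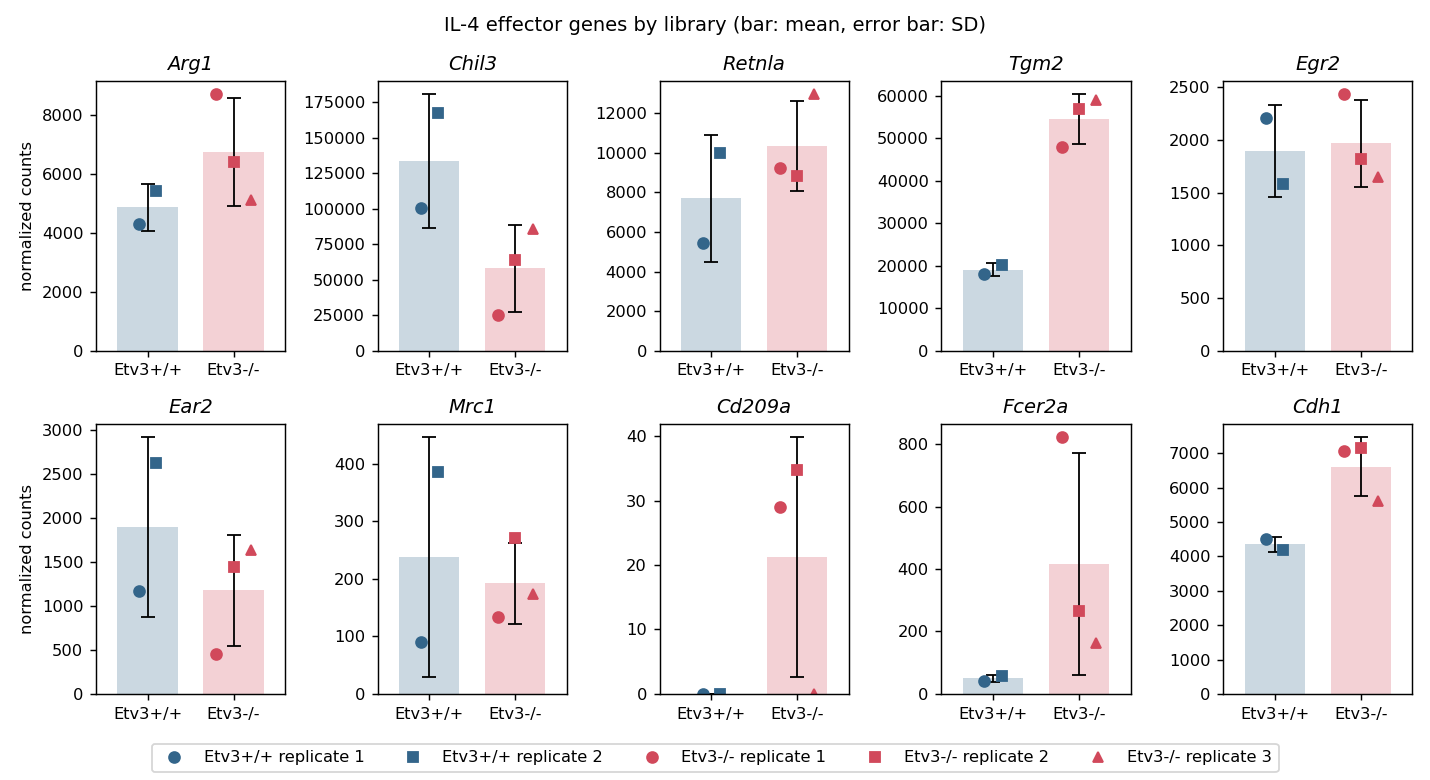
Normalized counts of each of the 10 genes (vertical axes, linear from 0) in Etv3+/+ and Etv3-/- libraries. Points are libraries, bars are group means and error bars are SDs (n = 2 and n = 3). The Tgm2 groups are far apart, with 17986 and 20120 against 47865 to 58997, while the groups of Arg1, Retnla, Egr2, Ear2, Mrc1 and Cd209a overlap.

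Several facts of the libraries bear on all that follows. Recovered depth was 42983550 to 68253936 reads per library, without molecular identifiers, so limits from counting cover counting error alone. Etv3 itself was at 23050 and 25447 normalized counts in Etv3+/+ libraries and at 18691, 20416 and 22856 in Etv3-/- libraries (log2 fold change -0.23, limma adjusted p = 0.567). Where the gene was disrupted is not stated in the labels, so this total does not check the genotype, and groups are as labelled. Of 12 dendritic cell markers all were tested and 0 passed. Their summed level did not overlap, at 1104765 to 1511706 in Etv3+/+ and 2167093 to 2889971 in Etv3-/- libraries. Most of that sum was RNA of the MHC class II genes Cd74, H2-Ab1 and H2-Aa. Of the 12, 6 were higher without overlap and 0 lower, against 16.7% and 19.3% of all tested genes. H2-Ab1, an MHC class II chain, was at 193338 to 300904 and 606099 to 870214, the transcription factor Zbtb46 at 9852 to 10039 and 10982 to 12295, and the receptor Flt3 at 3047 to 4380 and 2952 to 4431. Their part in the results below was not tested. Csf1r, which encodes the CD115 that the sort excluded, was at 1018 and 1348 in Etv3+/+ and at 2403 to 3493 in Etv3-/- (limma adjusted p = 0.0683). In bulk RNA, fewer cells of a type and less RNA per cell cannot be told apart.

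The 10 genes spanned a wide range of levels. Counted per kilobase of exon over all 5 libraries, Chil3 was the highest at a mean of 54118 normalized counts per kilobase, followed by Retnla at 15510, Tgm2 at 8757, Arg1 at 2695 and Ear2 at 2039. Cdh1 had 1248, Egr2 571, Fcer2a 87.3, Mrc1 33.0 and Cd209a 8.05 normalized counts per kilobase. Library ranges of neighbours in this order overlapped except between Cdh1 and Egr2 and between Egr2 and Fcer2a. The secreted proteins Chil3 and Retnla and the enzyme Tgm2 were thus at the top, and the lectin receptors Mrc1 and Cd209a at the bottom. Chil3 stood above Retnla in 4 of 5 libraries, and the exception was Etv3-/- replicate 1. In Etv3+/+ libraries Ear2 had the fourth place with a mean of 2639 normalized counts per kilobase, above Arg1 with 2189, and in Etv3-/- libraries Arg1 had it with 3032 against 1638.

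**Figure D2:**
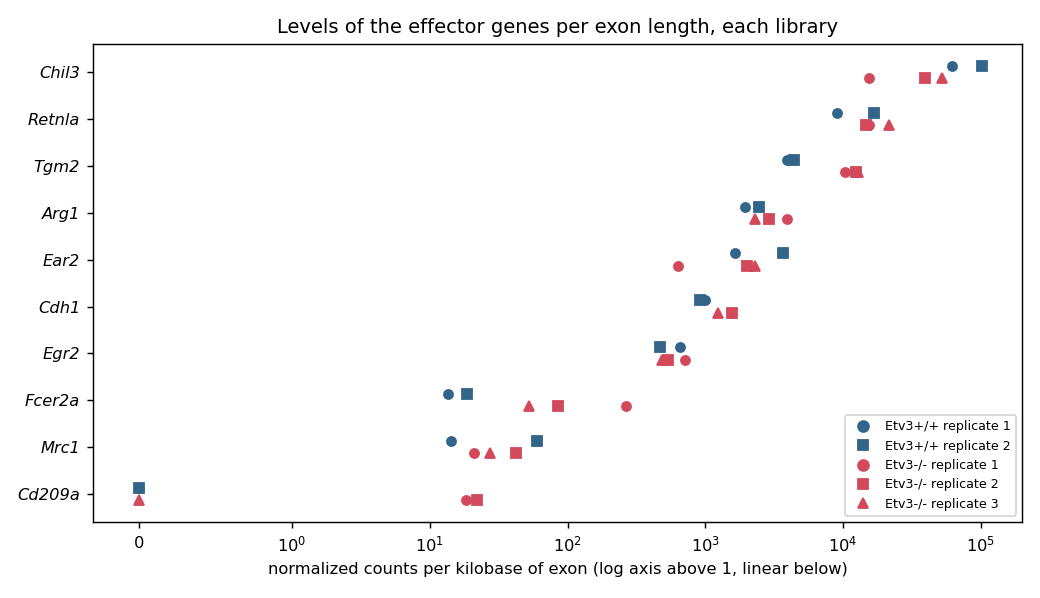
Normalized counts per kilobase of exon (horizontal axis, logarithmic above 1 and linear below) for each of the 10 genes in each of the 5 libraries, ordered by mean. Levels run from 8.05 for Cd209a to 54118 for Chil3 as means over all libraries.

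Arg1 encodes arginase 1, which splits arginine into urea and ornithine and so competes with nitric oxide synthase for its substrate. The gene lies on chromosome 10 (24915221 to 24927484, minus strand, GRCm38). The Etv3+/+ libraries had 4315 and 5438 normalized counts of it, and Etv3-/- replicates 1, 2 and 3 had 8735, 6424 and 5110. The lowest Etv3-/- library lay below the higher Etv3+/+ library, so the groups overlapped. On the log2 scale the fold change was 0.44 (adjusted p = 0.428 in limma, 95% interval -0.18 to 1.07), an interval that holds both no change and a doubling.

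Ornithine made by arginase feeds polyamine synthesis, and of 14 genes of arginine and polyamine metabolism 1 rose and 0 fell. The gene that rose was Odc1, ornithine decarboxylase, the enzyme that takes up the product of arginase. Odc1 had 2721 and 2356 normalized counts in Etv3+/+ libraries and 5735, 7402 and 8626 in Etv3-/- libraries, with no overlap. Its mean was 2.86-fold higher (95% interval of the log2 fold change 0.95 to 2.05, limma adjusted p = 0.0348). The call was lost without any 1 of the 5 libraries (adjusted p = 0.0905 to 0.124) and in limma with trend=FALSE (0.155).
The median log2 fold change of the 14 genes was -0.21. A pair of them is given because of their role, after their values were seen. Arg2, the mitochondrial arginase, had 540 and 371 normalized counts in Etv3+/+ and 9.68, 250 and 192 in Etv3-/- libraries, and it did not pass. Nos2, the inducible nitric oxide synthase, had 426 and 289 against 740, 186 and 196 (adjusted p = 0.891).

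Chil3 encodes Ym1, a secreted chitin-binding lectin without chitinase activity. It was the most abundant of the 10 genes, with 100380 and 167014 normalized counts in Etv3+/+ and 25059, 63530 and 85623 in Etv3-/- libraries. Every Etv3-/- library lay below both Etv3+/+ libraries, yet the Etv3-/- libraries differed among themselves by 3.42-fold. The log2 fold change was -1.33 (95% interval -2.51 to -0.15), which did not pass (limma adjusted p = 0.234). Without Etv3-/- replicate 1 it was -0.81 (adjusted p = 0.397).
Neutrophil precursors also transcribe Chil3, so the 10 neutrophil markers are given beside it. None of the 10 passed the test, and their median log2 fold change was -0.75. Their summed level was 44080 and 50791 normalized counts in Etv3+/+ libraries and 12040, 24885 and 67942 in Etv3-/- libraries. Etv3-/- replicate 1 was the lowest of the 3 and replicate 3 the highest, as for Chil3, and 7 of the 10 markers had that same order. S100a8, a calcium-binding alarmin, had 3307, 12690 and 24708 in these 3 libraries. Elane, a marker with another order, had 669, 70.6 and 95.6 in them, and 197 and 0 in the Etv3+/+ libraries. In Etv3-/- replicate 3 the summed markers were above both Etv3+/+ libraries, and Chil3 was below both. Of 17 macrophage and monocyte markers 5 had the order of Chil3 over the Etv3-/- libraries. The share of all tested genes with that order was not determined. The part of neutrophil RNA in the Chil3 values was not tested.

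Chil3 lies on chromosome 3 (106147554 to 106167564, minus strand, GRCm38), 18.6 Mb from Etv3. Whether DNA linked to the targeted locus differs between the groups was not tested. Of 7 other chitinase family genes 3 were tested and 0 passed. The 2 with the highest means were Ctbs, a lysosomal chitobiase, at 772 and 762 against 838 to 1018, and Chil1, at 854 and 434 against 78.5, 415 and 1492 normalized counts. Chil4, the close copy of Chil3 that encodes Ym2, had 12.1 and 237 against 4.30, 49.5 and 42.1. It was named after its values were seen, because reads of these copies can be exchanged and the values of both are then uncertain.

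Retnla encodes FIZZ1, a small secreted protein of the resistin-like family, and its promoter holds the first of the sequences printed above. It had 5423 and 9975 normalized counts in Etv3+/+ libraries and 9247, 8827 and 12982 in Etv3-/- libraries. Etv3+/+ replicate 1 was the lowest of all, and the other Etv3+/+ library lay inside the Etv3-/- range. The gene is on chromosome 16 (48842551 to 48844461, plus strand). Its fold change in log2 units was 0.47 (adjusted p = 0.453 in limma, 95% interval -0.24 to 1.18), and it was 0.032 without Etv3+/+ replicate 1. Retnlg, the family member of neutrophils, had 3207 and 2429 against 863, 1682 and 5060, and Retn, which encodes resistin, was listed at 0 in both Etv3+/+ libraries and at 1.24 to 14.0 in Etv3-/-. Neither passed the test.

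Ear2, on chromosome 14 (44102654 to 44103534, plus strand), belongs to the eosinophil-associated ribonucleases, secreted enzymes that degrade RNA. It had 1174 and 2620 normalized counts in Etv3+/+ libraries and 456, 1443 and 1635 in Etv3-/- libraries. The groups overlapped, and Etv3-/- replicate 1 was again the lowest library. This made a log2 fold change of -0.77 (95% interval -2.15 to 0.60, limma adjusted p = 0.527), and without that library -0.19.
Summed markers of eosinophils were at 1180 to 1787 normalized counts in Etv3+/+ and at 1511, 1098 and 4035 in Etv3-/- replicates 1, 2 and 3, with 0 of 7 called. Of these 7 markers 1 had the same order as Ear2 over the Etv3-/- libraries, and of the 10 neutrophil markers 7 had it. How many of all tested genes had this order was not determined. The part of either cell type in the Ear2 values was not tested. Epx, eosinophil peroxidase, was listed at 0 in 3 of the 5 libraries. None of the 6 tested genes of the ribonuclease list passed. Rnh1, the inhibitor of these ribonucleases, was at 19581 to 25112 and 18218 to 24328 in the 2 groups, and Rnase2a at 902 to 3026 and 1229 to 2047. Reads of near-identical Ear genes are uncertain between the copies, and Gm49101 overlaps Ear2 on the other strand.

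Tgm2 encodes tissue transglutaminase, which links proteins through glutamine and lysine side chains and is one of the few alternative activation markers shared by mouse and human. It had 17986 and 20120 normalized counts in Etv3+/+ libraries and 47865, 56804 and 58997 in Etv3-/- libraries. Every Etv3-/- library was far above both Etv3+/+ libraries, and the spread within each group was small, 19053 ± 1509 (SD, n = 2) against 54555 ± 5897 (SD, n = 3). The log2 fold change was 1.51 (SE 0.21, 95% interval 1.03 to 2.00, limma adjusted p = 0.0249), and edgeR on recovered reads also called it (1.58, adjusted p = 0.0321). Its size hardly moved when any 1 library was left out (1.43 to 1.61), but its call was then lost each time (adjusted p = 0.0559 to 0.111), as it was with trend=FALSE (0.104).
The gene lies on chromosome 2 (158116402 to 158146436, minus strand) and overlaps Rprd1b and Gm20412 on the other strand. Rprd1b was at 595 ± 63.2 (SD, n = 2) and 917 ± 166 (SD, n = 3) normalized counts. Its mean over all libraries was 121 normalized counts per kilobase of exon, against 8757 for Tgm2. Without strand in the counting, reads from a stretch that such genes share cannot be told apart. The strand setting is not given in the sources used here.

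The rise of Tgm2 was set beside markers of macrophages, which are a known source of transglutaminase. Of 17 macrophage and monocyte markers 3 rose and 0 fell. Those that rose encode the chains of complement C1q (C1qa, C1qb, C1qc). The calls of C1qa (adjusted p = 0.0521 to 0.127) and C1qb (0.104 to 0.118) were lost without any 1 of the 5 libraries, that of C1qc without any 1 of the Etv3-/- libraries (0.0807 to 0.0973), and all 3 with trend=FALSE. The list had a median log2 fold change of 1.23. The summed level of the 17 markers was 39606 and 40372 normalized counts in Etv3+/+ and 63592 to 82485 in Etv3-/-, without overlap. Of the 17 markers 10 were higher without overlap and 1 lower, against 16.7% and 19.3% of all tested genes. Fcgr1, an Fc receptor of macrophages, was listed at 0 in both Etv3+/+ libraries and at 0 to 30.7 in Etv3-/- libraries. Their part in the Tgm2 result was not tested.

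Of 8 other genes of the transglutaminase family 2 were tested and 0 passed. F13a1, the clotting factor subunit, had 357 and 983 against 1401, 401 and 270 normalized counts, and Tgm4 8.39 and 0.856 against 12.9, 91.6 and 24.6. Of the 8, 5 had 0 reads in every library. The genes whose pattern over the 5 libraries was nearest to that of Tgm2, out of 11787, were Slc16a13, Prkcq and Dcstamp. Their root mean square differences from it were 0.038, 0.11 and 0.11 in log2(normalized count + 1) after centring each gene. Slc16a13 and Prkcq were not called (limma adjusted p = 0.179 and 0.0997). Dcstamp, a membrane protein needed for cell fusion of osteoclasts, had 2664 and 2967 against 8364, 7878 and 9131 normalized counts (limma adjusted p = 0.0172), and kept its call without a library in 1 of 5 cases (adjusted p = 0.0464 to 0.107). For Chil3, the most abundant gene, the nearest were Rsph10b, Crocc and Mx1, at 0.12, 0.15 and 0.16.

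Fcer2a, on chromosome 8 (3681737 to 3694175, minus strand), encodes CD23, the low-affinity receptor for IgE, which IL-4 induces on B cells and on myeloid cells. It had 41.9 and 57.3 normalized counts in Etv3+/+ libraries and 823, 265 and 162 in Etv3-/- replicates 1, 2 and 3. In reads these were 45 and 67 against 765, 214 and 185. All 3 Etv3-/- libraries were above both Etv3+/+ libraries, but replicate 1 had 5.07 times the level of replicate 3. Its log2 fold change was 2.72 (95% interval 0.96 to 4.48), and it did not pass in limma (adjusted p = 0.134) or edgeR (0.126), though it did in DESeq2 (0.00323).
CD23 also marks mature B cells, so B cell markers are given beside it. The 10 B cell markers summed to 2487 and 2032 normalized counts in Etv3+/+ and to 6650, 4286 and 4599 in Etv3-/- libraries. Of 9 tested, 0 passed, with a median log2 fold change of 1.78. Cd79a, of the B cell receptor, had 99.7 and 57.3 against 595, 276 and 176. Of the 9 tested markers 5, among them Cd79a, Ms4a1, Pax5 and Ighd, had the same order as Fcer2a over the 3 Etv3-/- libraries. The others had another order, among them Cd79b, at 1315, 1089 and 1834, and Ighm, at 2076, 1279 and 1958 in Etv3-/- replicates 1, 2 and 3. Cr2, the complement receptor CD21 that binds CD23, had 0 reads in every library. How many of all tested genes had the order of Fcer2a was not determined. The part of B cell RNA in the Fcer2a values was not tested.

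Among 6 other genes of the IgE and CD23 group 0 passed of 5 tested. Lgals3, the IgE-binding galectin, was at 59711 and 54261 against 96804, 54928 and 69613 normalized counts. Fcer1g, the signalling chain shared by activating Fc receptors, was at 8692 and 9153 against 19759, 15649 and 20892, with no overlap (limma adjusted p = 0.0635).

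**Figure D3:**
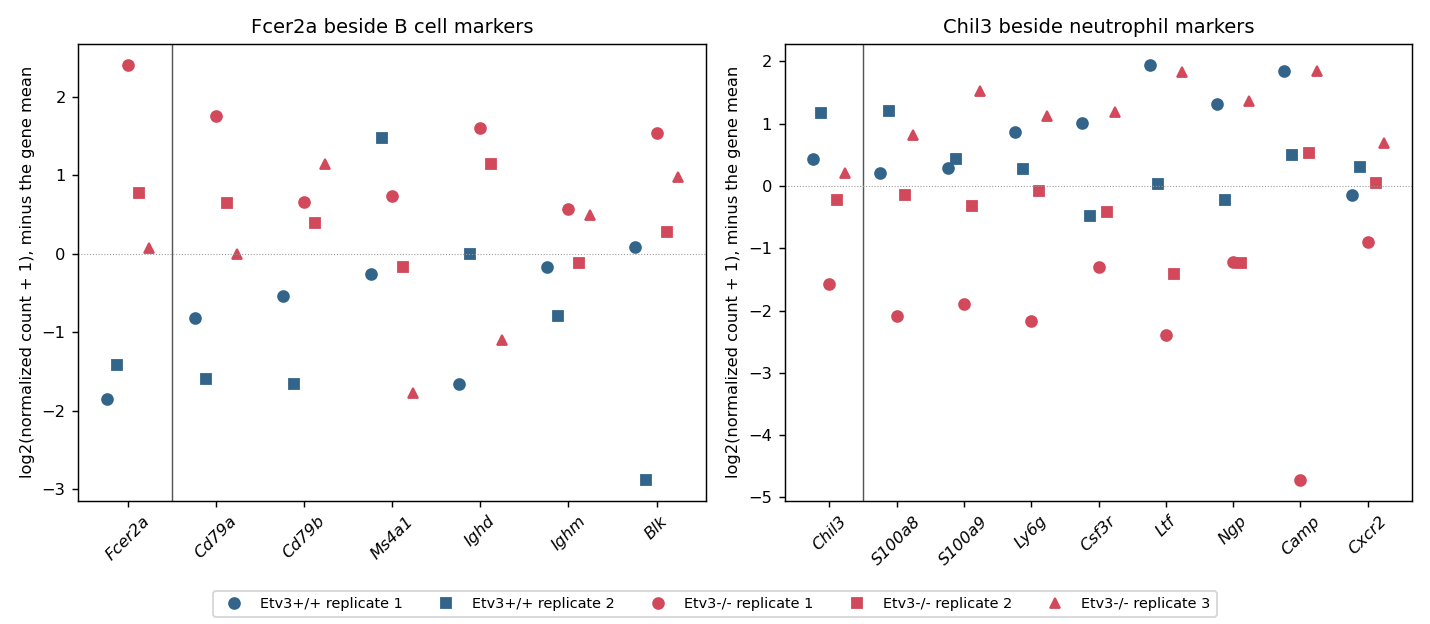
Level of Fcer2a with B cell markers (left) and of Chil3 with neutrophil markers (right) in each of the 5 libraries, as log2(normalized count + 1) minus the mean of the gene (vertical axes). Points are single libraries. Etv3-/- replicate 1 is the highest for Fcer2a and Cd79a and the lowest for Chil3, S100a8 and Ltf. Cd79b is highest in Etv3-/- replicate 3. Each panel draws a part of its marker list. Elane, highest in Etv3-/- replicate 1, and Mpo are not drawn. Neither had the order of Chil3 over the Etv3-/- libraries.

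Mrc1, on chromosome 2 (14229392 to 14332057, plus strand), encodes the mannose receptor CD206, an endocytic lectin of macrophages and of dendritic cells grown with GM-CSF. It was low here, with 90.4 and 385 normalized counts in Etv3+/+ libraries and 133, 270 and 174 in Etv3-/- libraries. Both extremes of the 5 values were Etv3+/+ libraries, 4.26-fold apart. A log2 fold change of -0.020 (95% interval -1.69 to 1.65, limma adjusted p = 0.992) rests on that pair: it was -1.06 without Etv3+/+ replicate 1 and 1.02 without replicate 2. Of its 3 relatives, Ly75, the DEC-205 receptor of dendritic cells, was at 14027 and 18305 against 13887, 15926 and 10052, and Mrc2 at 282 and 121 against 175, 545 and 356. Neither passed, and Pla2r1 had 0 reads in every library.

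Cd209a, on chromosome 8 (3743397 to 3748984, minus strand), encodes the mouse homologue of DC-SIGN, a lectin of monocyte-derived dendritic cells. It had 0 reads in both Etv3+/+ libraries and 27, 28 and 0 reads in Etv3-/- replicates 1, 2 and 3, or 29.0, 34.7 and 0 normalized counts. Etv3-/- replicate 3 thus had none, like the Etv3+/+ libraries. Against a limit of 3 reads over the Etv3+/+ group, 1.34 normalized counts, the Etv3-/- mean was at least 15.8-fold higher, a bound that covers counting error alone and comes from the group through which the gene passed the filter. The test did not call it (limma adjusted p = 0.459, 95% interval of the log2 fold change -1.77 to 8.48). Of the 6 other Cd209 genes none passed the filter, and the highest were Cd209d, at 18.0 in Etv3+/+ replicate 2 and 9.65 in Etv3-/- replicate 3, and Cd209e, at 8.67 in Etv3-/- replicate 2, each at 0 in the other libraries. At the levels of these 6 genes a difference was not detectable.

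Cdh1, on chromosome 8 (106603351 to 106670246, plus strand), encodes E-cadherin, a homophilic adhesion protein that IL-4 induces in macrophages and that couples to catenins inside the cell. It had 4514 and 4193 normalized counts in Etv3+/+ libraries and 7056, 7164 and 5624 in Etv3-/- libraries. The groups did not overlap, and the spread within Etv3+/+ was the narrowest of the 10 genes apart from Cd209a, at 1.08-fold. In log2 units the difference was 0.60 (95% interval 0.12 to 1.08), below the threshold of the test (limma adjusted p = 0.201).
E-cadherin is also made by epithelial and Langerhans cells, and 7 of their markers are given beside it. Krt8, Krt5 and Cd207 had 0 reads in every library, and Krt18 had 28 reads in Etv3-/- replicate 1 alone. Of the 2 tested, Ltc4s, which makes leukotriene C4, rose from 2988 and 2844 normalized counts to 10059, 10202 and 14322 (limma adjusted p = 0.0155). Its call was kept in 1 of the 5 fits without a library (adjusted p = 0.0464 to 0.0928). With trend=FALSE the Ltc4s call was lost (limma adjusted p = 0.0824). The summed level of the 7 was 3578 to 4121 in Etv3+/+ and 10835 to 14741 in Etv3-/- libraries, nearly all of it Ltc4s and Epcam. Their part in the Cdh1 values was not tested. Epcam, which dendritic cells also make, was at 1133 and 734 against 759, 633 and 414 normalized counts. Of 13 genes of the cadherin and catenin group 11 were tested and 0 passed. Ctnna1, alpha-catenin, the link of cadherins to actin, was at 32853 and 28251 against 18985, 19022 and 22063 (limma adjusted p = 0.183), lower in each Etv3-/- library. Jup, plakoglobin, was at 6183 and 3916 against 5485, 5845 and 7407.

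Egr2, on chromosome 10 (67535475 to 67542188, plus strand), encodes a zinc finger transcription factor that IL-4 and STAT6 induce and that acts on later genes of alternative activation. It had 2206 and 1585 normalized counts in Etv3+/+ libraries and 2437, 1822 and 1649 in Etv3-/- libraries. The groups overlapped across nearly their whole range. Its log2 fold change was 0.054 (adjusted p = 0.942 in limma, 95% interval -0.60 to 0.70), so a change of up to 1.63-fold upward lies within the interval. It took the other sign, -0.18, without Etv3+/+ replicate 2.
On the list of EGR factors, their NAB corepressors and other early response genes, 8 of 9 were tested, 1 rose and 0 fell, with a median log2 fold change of 0.84. The gene that rose was Fos, an AP-1 subunit, with 1715 and 1764 against 6340, 6201 and 5615 normalized counts. Its log2 fold change was 1.80 (adjusted p = 0.0135 in limma, 95% interval 1.34 to 2.26). With trend=FALSE the Fos call was lost (limma adjusted p = 0.0592). Leaving out Etv3+/+ replicate 2 kept the Fos call, and leaving out each of the other 4 libraries lost it (adjusted p = 0.0519 to 0.0973). Egr1, named after its values were seen as the closest relative, was at 2391 and 2207 against 4079, 1653 and 1568 (adjusted p = 0.955).

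The other IL-4 response genes showed calls in both directions. The list of 38 was drawn from general knowledge, but with earlier results of these data known. Of the 37 tested, 2 rose and 1 fell, against 1.19% called over all tested genes. Their median log2 fold change was 0.05. Mgl2, a galactose-type lectin receptor, had 6138 and 3436 normalized counts in Etv3+/+ libraries and 73779, 67676 and 82946 in Etv3-/- libraries (log2 fold change 4.02, limma adjusted p = 0.00467). Clec10a, its neighbour and close relative, had 524 and 224 against 7136, 3295 and 4307 (3.76, adjusted p = 0.0155). Cd1d1, which presents lipid antigens, had 3911 and 3450 against 839, 925 and 1100 (-1.95, adjusted p = 0.0195). It lies 0.526 Mb from Etv3, and whether DNA linked to the targeted locus differs between the groups was not tested. Both lectin genes were thus higher in each Etv3-/- library than in either Etv3+/+ library, and Cd1d1 was lower. With trend=FALSE the calls of Clec10a (limma adjusted p = 0.0932) and Cd1d1 (0.0648) were lost, and that of Mgl2 was kept (0.0279). Mgl2 lost its call without Etv3-/- replicate 1 alone (adjusted p = 0.0565), Clec10a without any of the 3 Etv3-/- libraries (0.0707 to 0.0973), and Cd1d1 without any of the 5 (0.0590 to 0.107).
Ccl24, eotaxin 2, and Cish, a feedback inhibitor induced through STAT5 and STAT6, are named after their values were seen, because their groups were well apart without a call in limma as reported; each was called in 2 of 18 alternatives. Ccl24 had 1004 and 971 normalized counts in Etv3+/+ libraries and 151, 92.9 and 375 in Etv3-/- libraries (log2 fold change -2.50, limma adjusted p = 0.103). Cish had 8947 and 8132 against 19029, 16281 and 14791 (0.96, adjusted p = 0.0724).

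**Figure D4:**
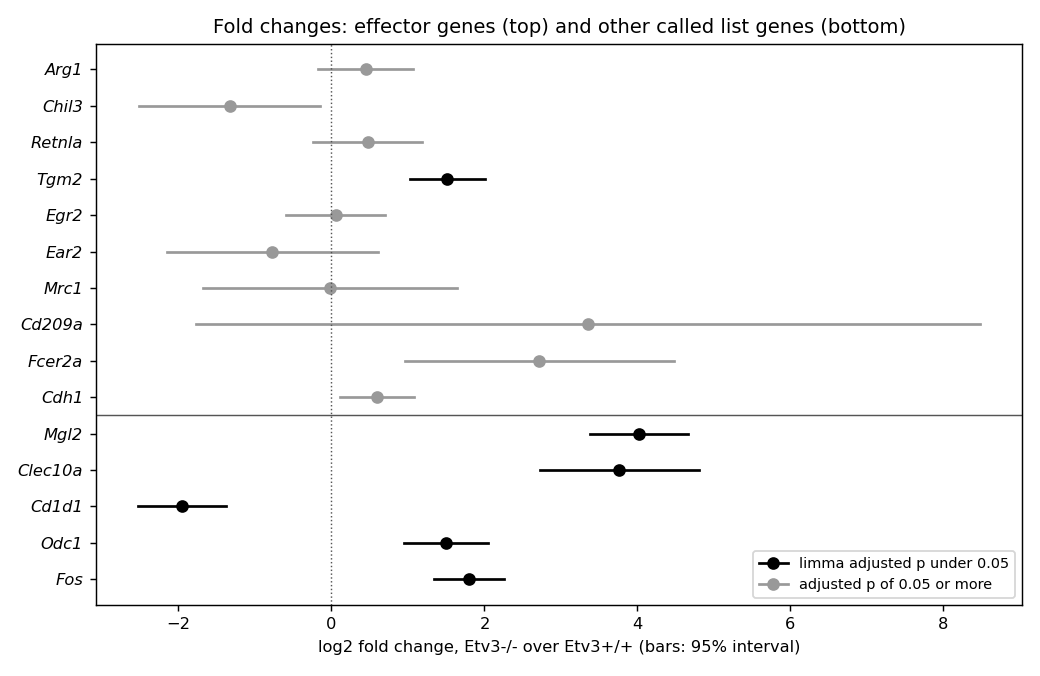
Log2 fold change of Etv3-/- over Etv3+/+ libraries (horizontal axis) with 95% intervals for the 10 genes (top) and for called genes of other lists (bottom). The lower part draws Mgl2, Clec10a, Cd1d1, Odc1 and Fos, and leaves out the called markers C1qa, C1qb, C1qc and Ltc4s. Black marks genes with a limma adjusted p under 0.05 and grey the others. Tgm2 at 1.51 is the single black gene in the upper part, and the interval of Cd209a is the widest, from -1.77 to 8.48.

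Upstream of these genes, the receptor and kinase components were present in every library and 0 of 12 passed. Of the 12, 5 were higher without overlap and 2 lower, against 16.7% and 19.3% of all tested genes. Il4ra, the IL-4 receptor alpha chain, was at 34520 and 28401 normalized counts against 42099, 36402 and 40954, and Jak2, a kinase of the GM-CSF receptor, at 133223 and 177463 against 93721, 112847 and 81630. Stat6, given after its values were seen because it is the factor of the pathway, was at 36255 and 31740 against 37510, 37495 and 39035 (log2 fold change 0.16, 95% interval -0.30 to 0.62, limma adjusted p = 0.708). Over the receptor list and all lists of partners and relatives together, 65 genes were tested, 2 rose (Odc1 and Fos) and 0 fell, with a median log2 fold change of 0.09.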

How the data were processed

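The signal values that the authors deposited are normalized counts, 1 column for each of 5 libraries and 1 row for each of 27678 symbols. Trimmomatic 0.36, STAR 2.7.3a, Subread 1.6.3, featureCounts, DESeq2 1.26.0 and the build mm10 are named, per the submitters' processing notes, without roles. Annotation and strand setting: not given in the sources used here. Per the labels' protocols, libraries came from a low-input SMART-Seq kit.

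Low values were whole multiples of 1 step per library. Division by it gave values within 0.1 of a whole read for 100% of values, 42983550 to 68253936 reads per library. Genes with 10 or more normalized counts in at least 2 libraries were tested with limma 3.58.1 (R 4.3.3, eBayes with trend) on log2(normalized count + 1). The model held genotype and no covariate, tests were two-sided, and p-values were adjusted over all 13813 genes by Benjamini and Hochberg, with a threshold of 0.05. Fold changes on that scale understate changes of low genes. Ratios in the text are of group means. Intervals are at the 95% level. The procedure was tested on simulated data. Exon lengths and positions came from GENCODE M21 on the assembly of mm10, and promoters from RefSeq.

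The genes and lists were chosen with earlier results of these data known. Named genes were the 10 members, called genes of each list (up to 4), or the 2 with the highest mean where none was called, and the 3 genes nearest in pattern with a mean of at least 50. Single markers of cell types fall outside this rule and were named after their values were seen. Alternatives were pseudocounts of 0.5 and 5, no filter or one of 50, TMM and quantile scaling, other limma settings, a block for the replicate number, libraries left out, and edgeR 4.0.16 and DESeq2 1.42.0 on recovered reads. The lists of each gene group were described by counts and medians, with no set test. The values of 1 marker gene are not reported here. Figures were drawn with matplotlib 3.10.9.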

Additional observations from a re-analysis of the deposited data

How the results depend on the processing

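Tgm2 kept its direction in all 18 alternatives (log2 fold change 1.43 to 1.64) and its call in 11. Arg1, Retnla, Cdh1, Ear2, Chil3, Fcer2a and Cd209a kept their direction wherever they were tested. The number of the 10 genes called, 1 as reported, was 2 in DESeq2 (with Fcer2a), 2 with the replicate block (with Chil3, -1.70, adjusted p = 0.0293), and 0 with trend=FALSE, without each single library (0 to 0) and without both Etv3+/+ replicate 2 and Etv3-/- replicate 3, whose deviations followed GC content most (Spearman -0.42 and 0.41 across genes, which are not independent). At an unadjusted p under 0.05 there were 6 of the 10 genes in that last fit (1919 of all 12966 tested), 2 with trend=FALSE (1943 of 13813), 6 with the block (2254 of 13813) and 2 to 6 without single libraries (1730 to 2414 of all genes). Under the block the third Etv3-/- library adds nothing to the difference of genotypes, since number 3 occurs in 1 group. Deviations from the group means correlated at -0.03 and 0.04 between libraries of the same number, which does not show a pairing.

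The 3 calls among the 38 other IL-4 response genes became 9 in DESeq2, 6 with the block, 1 with trend=FALSE, 1 without both GC libraries, and 0 to 2 without single libraries. The 2 calls among partners and relatives became 8, 2, 0, 0 and 0 to 1 in the same order. Over all genes the 165 calls became 1188 (644 higher, 544 lower), 269 (151 and 118), 93 (44 and 49), 7 (6 and 1) and 0 to 80. The fits without libraries have fewer samples, and where 1 Etv3+/+ library remains it is assumed to vary like the others. For the other settings the cause was not tested.

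Mrc1, near 0 as reported, took a positive sign with TMM (0.040), quantile scaling (0.093), sample weights (0.037) and the block (0.023), without both GC libraries (1.06), and ranged from -1.06 to 1.02 without single libraries. Egr2 ranged from -0.18 to 0.29 without single libraries and was -0.066 without both GC libraries. Cd209a rested on at most 28 reads in a library.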
